A study of Sus scrofa with 8 samples.

Results

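The early retinal response to an intravitreal adeno-associated virus (AAV) vector was described from the 4 retinas collected at week 2, out of 8 retinas in the series. All animals were female Yucatan minipigs. The AAV animal (7221) had received AAV2.7m8/CAG-GFP in both eyes at 5e11 vector genomes per eye, a capsid variant of AAV2 carrying a green fluorescent protein gene under the ubiquitous CAG promoter, and the vehicle animal (7222) had received vehicle in both eyes. The control shared every other agent, since all pigs were given Vitrase, a hyaluronidase, 2 weeks before injection and methylprednisolone every week. The retinas are those labelled AAV week 2 (left and right eye of 1 pig) against Vehicle week 2 (left and right eye of 1 pig). Globes were frozen, retinas were dissected from them and frozen, and nuclei were isolated, sorted by DAPI staining and counted in droplets, and the unique molecular identifiers (UMIs, each standing for 1 captured transcript) of all barcodes of a retina were summed. The 4 retinas held 190187 of the 388491 barcodes of the series. At week 4 the series holds the left eyes of 2 AAV pigs (7248 and 7249) and 2 vehicle pigs (7250 and 7251), treated alike, in which the week 2 genes were looked up.

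Because each arm at week 2 was 1 animal, the eyes of an arm are not replicates of the treatment, no p-value was computed between the arms, and a difference between treatments cannot be told apart from a difference between these 2 pigs. The labels also give each group its own batch, so batch and group cannot be told apart. Levels are counts of UMIs relative to the scaled library total (CPM, counts per 1e6 UMIs), with scaling for library composition. A gene was called higher or lower when the mean of the AAV eyes differed from the mean of the vehicle eyes at least 2-fold and the eyes of the groups did not overlap. Whole retinas were summed, so more cells of a type and more RNA per cell cannot be told apart.

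Cells meet a vector first through its capsid and its DNA genome. Sensors of foreign nucleic acid in the cytoplasm and endosome lead to secretion of type I interferons, whose receptor activates a transcription factor complex that holds STAT2 and IRF9. This complex binds the interferon-stimulated response element (ISRE) of target genes, which encode antiviral effectors, more sensors, and the machinery that presents peptides on MHC class I. In the retina, Müller glia, astrocytes and microglia respond to interferon, and neurons do so too.

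The transgene was read first, as a check of the labels. EGFP had 5008 UMIs in the left and 11235 in the right AAV eye, against 1 and 3 UMIs in the left and right vehicle eye. These counts gave 35.0 CPM (95% exact Poisson interval 34.0 to 35.9) and 64.5 CPM (63.3 to 65.7) in the AAV eyes. With 4 UMIs in the vehicle eyes together, the ratio of 4063 carried a counting interval of 1645 to 15459, and it was 2690 without the left and 8301 without the right vehicle eye. The right AAV eye held 1.84 times the EGFP of the left. At week 4 the level was 26.7 and 26.9 CPM in the AAV animals, below both week 2 eyes, with 1 and 0 UMIs in the vehicle animals. All intervals cover counting error only.

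Total UMIs ran from 141270145 to 173614051 and median UMIs per barcode from 2391 to 3128 in the week 2 retinas. Every retina had 4 lanes, and lanes of different retinas shared between 21 and 61 barcodes, close to the 23 to 65 shared by lanes of the same retina. The markers of retinal neurons and glia were present in every eye. Summed rod markers lay between 4658 and 6128 CPM, bipolar markers between 2871 and 3220 CPM and cone markers between 1438 and 1571 CPM.

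Of the 23630 genes with a mean of at least 0.2 CPM, 540 were higher in the AAV eyes (2.29%) and 278 were lower (1.18%). Absence of overlap alone was common, at 69.2% of genes, and the size of the ratio therefore carried the call. The median ratio over all genes was near 0 on the log2 scale, with quartiles of -0.19 and 0.20. Large ratios were mostly in the higher direction. At least 8-fold, 108 genes were higher and 22 lower, and at least 64-fold, 21 were higher and 3 lower. The threshold cut through a dense range: 96 higher and 80 lower genes lay between 2-fold and 2.2-fold, and 174 and 165 further genes without overlap lay between 1.8-fold and 2-fold.

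The spread within an arm gives a yardstick for these counts. The eyes of the vehicle animal differed at least 2-fold at 40 genes and the eyes of the AAV animal at 204 genes. Animals of 1 treatment differed more than eyes of 1 animal. At week 4, the vehicle pigs were at least 2-fold apart at 524 of the same genes and the AAV pigs at 850. The number of genes called between the arms at week 2 (818, 3.46%) was thus of the order found between pigs given the same treatment, and the count alone does not set the treatment apart. The median absolute log2 ratio between the arms was 0.19, against 0.17 and 0.20 between the vehicle pigs and between the AAV pigs of week 4.

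What stood out was which genes carried the large ratios. Of the genes with a symbol that were higher at least 16-fold, 36 of 48 belonged to 4 lists written for interferon biology (antiviral effectors, nucleic acid sensors, MHC class I presentation, and interferon receptors and signalling). At least 8-fold it was 52 of 73, and at least 2-fold 70 of 312. A further 35 genes higher at least 8-fold have no symbol and could belong to no list. Of the 96 members of these lists that passed the filter, 70 were higher and 0 lower, against 2.29% and 1.18% of all genes tested. The filter used the mean over all 4 eyes. Genes below 0.2 CPM in both vehicle eyes, such as RSAD2 and BST2, therefore passed only because the AAV eyes were high. Counts among members that passed include such genes, whose direction the filter had fixed. The lists were chosen with earlier results of these data known, so the match is a description. The count of each list that follows is to be read against the shares of all genes and with these limits.

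**Figure D1:**
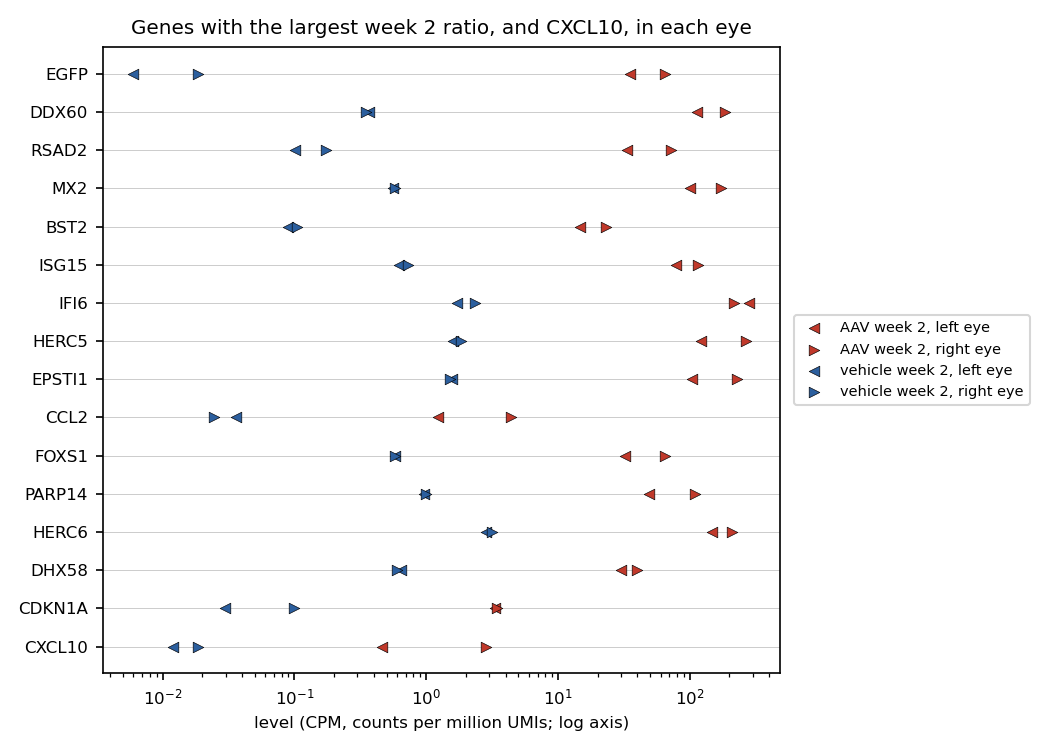
Level of the 15 genes with a symbol, at least 1 CPM and the largest week 2 ratio, and of CXCL10, in each week 2 eye (CPM, log axis; triangles pointing left and right are left and right eyes, red AAV, blue vehicle). The AAV eyes lay above the vehicle eyes for every gene shown, and the right AAV eye lay above the left for all but IFI6.

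Antiviral effectors formed the leading group. All 42 that were found passed the filter, 39 were higher and 0 lower (GBP2, GBP5 and TDRD7 were not called), and their median log2 ratio was 4.72, against -0.005 over all genes. RSAD2 encodes viperin, a radical enzyme that makes a chain-terminating nucleotide, and its level was 33.5 and 72.2 CPM in the left and right AAV eye against 0.102 and 0.172 CPM in the vehicle eyes, a 385-fold ratio (244-fold without the right AAV eye). MX2, a dynamin-like GTPase that traps viral components, had 100.01 and 172 CPM against 0.557 and 0.579 CPM, 240-fold. BST2, or tetherin, which holds enveloped virions at the cell surface, had 14.7 and 23.1 CPM against 0.0898 and 0.105 CPM, 194-fold. In each of these genes both vehicle eyes were low, and the AAV eyes differed from each other far less than from the vehicle eyes.

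ISG15 is a ubiquitin-like protein that is attached to other proteins. It had 78.7 and 116 CPM in the AAV eyes against 0.623 and 0.727 CPM, 144-fold. HERC5, a ligase for ISG15 in humans, had 121 and 266 CPM against 1.59 and 1.85 CPM, 112-fold. Its neighbour HERC6, which lies 3783 bases away on the same strand, had 147 and 209 CPM against 2.82 and 3.17 CPM, 59.5-fold. USP18, which removes ISG15 and restrains the interferon receptor, had 58.8 and 71.3 CPM against 4.02 and 3.76 CPM, 16.7-fold. Further genes among the 15 with the largest ratio were IFI6, an interferon-induced mitochondrial protein, with 281 and 216 CPM against 1.71 and 2.34 CPM, EPSTI1 with 105 and 230 CPM against 1.57 and 1.52 CPM, and PARP14, an ADP-ribosyltransferase, with 49.3 and 109 CPM against 0.970 and 0.992 CPM. Without the right AAV eye the ratios of HERC5, EPSTI1 and PARP14 were 70.2-fold, 67.8-fold and 50.2-fold. Reads of close relatives such as the MX, IFIT, OAS and HERC genes may be shared in counting, so single members of these families are uncertain.

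The 250 bases before the RefSeq gene start are shown for 6 of these genes, in Sscrofa11.1, because the genes moved together and the ISRE is their classical control element. Capitals mark the ISRE core GAAANNGAAA on either strand (written TTTCNNTTTC where it lies on the reverse strand), and each sequence is read 5′ to 3′ along its gene. The windows are chr3:128897810-128898059 on the minus strand for RSAD2, chr2:60305056-60305305 on the plus strand for BST2, chr6:63362951-63363200 on the plus strand for ISG15, chr8:130591159-130591408 on the minus strand for HERC5, chr8:71695949-71696198 on the minus strand for the chemokine gene CXCL10, and chr13:204798383-204798632 on the plus strand for MX2, which holds no match and is shown for contrast.
RSAD2: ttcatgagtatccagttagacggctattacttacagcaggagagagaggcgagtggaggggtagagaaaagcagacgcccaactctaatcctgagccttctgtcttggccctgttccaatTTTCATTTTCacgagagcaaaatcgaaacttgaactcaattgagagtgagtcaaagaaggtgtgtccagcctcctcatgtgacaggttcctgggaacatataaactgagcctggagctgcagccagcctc
BST2: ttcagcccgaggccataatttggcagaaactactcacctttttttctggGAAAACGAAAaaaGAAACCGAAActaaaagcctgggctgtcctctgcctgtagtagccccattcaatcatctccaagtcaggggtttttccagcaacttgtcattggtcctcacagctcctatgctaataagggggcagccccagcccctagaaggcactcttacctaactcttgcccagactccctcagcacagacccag
ISG15: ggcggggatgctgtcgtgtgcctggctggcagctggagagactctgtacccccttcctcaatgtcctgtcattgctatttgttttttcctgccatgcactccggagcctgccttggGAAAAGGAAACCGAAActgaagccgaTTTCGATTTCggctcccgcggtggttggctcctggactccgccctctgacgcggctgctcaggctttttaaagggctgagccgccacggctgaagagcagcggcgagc
HERC5: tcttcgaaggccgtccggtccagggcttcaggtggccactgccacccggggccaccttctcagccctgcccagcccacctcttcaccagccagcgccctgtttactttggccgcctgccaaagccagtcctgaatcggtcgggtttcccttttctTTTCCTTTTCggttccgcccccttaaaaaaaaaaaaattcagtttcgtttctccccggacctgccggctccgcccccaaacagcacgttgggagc
CXCL10: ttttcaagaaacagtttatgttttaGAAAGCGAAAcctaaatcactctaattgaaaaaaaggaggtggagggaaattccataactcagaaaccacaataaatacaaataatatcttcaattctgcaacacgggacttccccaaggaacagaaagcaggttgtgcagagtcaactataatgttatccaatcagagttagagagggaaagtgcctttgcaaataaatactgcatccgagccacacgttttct
MX2: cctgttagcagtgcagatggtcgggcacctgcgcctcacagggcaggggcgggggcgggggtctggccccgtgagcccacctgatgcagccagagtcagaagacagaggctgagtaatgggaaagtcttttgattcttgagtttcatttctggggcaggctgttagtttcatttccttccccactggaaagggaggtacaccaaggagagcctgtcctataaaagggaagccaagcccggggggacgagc
In ISG15 2 of the 3 matches overlap. A match starts 130 bases before the gene start in RSAD2, 95 bases before it in HERC5 and 225 bases before it in CXCL10.

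The motif was searched in the same window of every RefSeq protein-coding gene. It was present in 584 of 19506 windows (2.99%) and in 328 of the 12831 genes with a window that passed the week 2 filter (2.56%). Of the genes higher at least 2-fold, 31 of 287 windows held it (10.8%), and of those higher at least 8-fold, 20 of 65 (30.8%). It was present in 1 of 88 windows of lower genes (1.14%) and in 12 of 37 windows of antiviral effectors (32.4%). The gamma-activated site TTCNNNGAA (GAS), searched in the same windows, was present in 5.55% of the passing genes and in 6.15% of those higher at least 8-fold. A match is a description of the letters in the window and does not show binding.

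Nucleic acid sensors were the next group, with 12 of 17 members higher, 0 lower and a median log2 ratio of 2.32. DDX60, a helicase that promotes sensing of viral nucleic acid, had the largest ratio of any pig gene with a symbol and at least 1 CPM, with 114 and 185 CPM in the AAV eyes against 0.365 and 0.351 CPM (417-fold, counting interval 356 to 515). DHX58, or LGP2, which tunes RNA sensing, had 30.3 and 39.5 CPM against 0.641 and 0.598 CPM. IFIH1, the RNA sensor MDA5, had 63.2 and 84.5 CPM against 2.10 and 1.84 CPM, 37.6-fold. ZBP1, a sensor of left-handed nucleic acid, had 22.8 and 31.0 CPM against 0.683 and 0.819 CPM, 35.8-fold. The eyes of the groups were far apart in all of these sensors.

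Of the interferon receptors and signalling genes, 7 of 22 were higher and 0 lower, with a median log2 ratio of 0.43. The members with a large ratio were the ones that interferon itself is known to induce. IRF7, the factor that amplifies interferon transcription, had 20.6 and 36.8 CPM against 1.35 and 1.62 CPM, 19.4-fold. SOCS1, a feedback inhibitor of the receptor kinases, had 0.314 and 0.849 CPM against 0.0479 and 0.0616 CPM, 10.6-fold (5.74-fold without the right AAV eye). SOCS1 passed the filter only through the AAV eyes. Of the 5 interferon genes found by symbol on the list, only IFNE passed the filter, at 14.7 and 17.7 CPM against 13.8 and 12.8 CPM, which was not past the threshold. IFN-ALPHA-15, an interferon gene outside the list that was named after its values were seen, had 6.66 and 5.65 CPM against 0.311 and 0.271 CPM, 21.1-fold. At week 4 it had 4.23 and 0.271 CPM in the AAV animals and 3.53 and 0.299 CPM in the vehicle animals, so 1 animal of each treatment was high there.

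**Figure D2:**
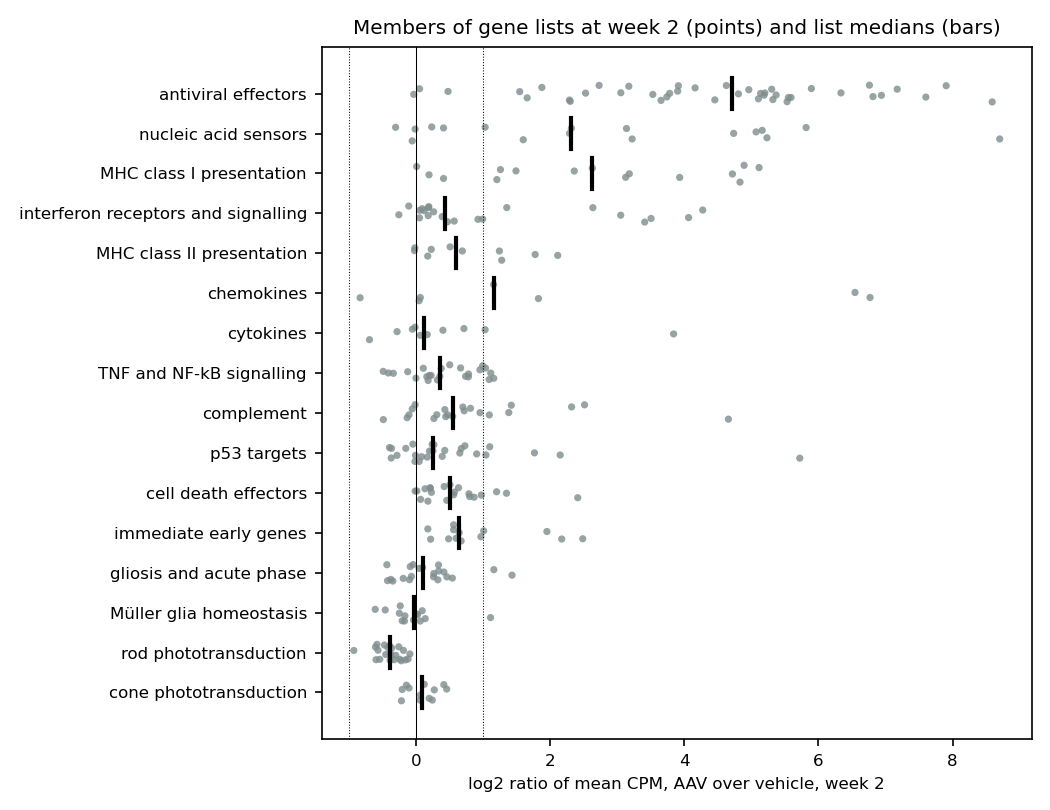
Log2 ratio of mean CPM between AAV and vehicle eyes at week 2 for the members of 16 gene lists that passed the filter (grey points; black bars are list medians; dotted lines mark 2-fold). The medians of antiviral effectors, nucleic acid sensors and MHC class I presentation lay at 4.72, 2.32 and 2.63, and those of photoreceptor and Müller glia lists lay between -0.38 and 0.09.

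Genes of MHC class I presentation were higher in 12 of 15 cases, 0 were lower and the median log2 ratio was 2.63. PSMB8, a catalytic subunit of the immunoproteasome, had 3.26 and 4.95 CPM against 0.120 and 0.117 CPM, 34.7-fold. PSMB8 passed the filter only through the AAV eyes. NLRC5, the transactivator of class I genes, had 51.8 and 114 CPM against 2.65 and 2.93 CPM, 29.7-fold (18.6-fold without the right AAV eye). TAP2, part of the peptide transporter, had 10.0 and 15.6 CPM against 0.425 and 0.474 CPM, 28.5-fold. B2M, the light chain of class I molecules, had 42.2 and 46.0 CPM against 1.69 and 1.66 CPM, 26.3-fold.

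MHC class II presentation, which professional antigen-presenting cells use, moved less. Here 4 of 10 members were higher and 0 lower, with a median log2 ratio of 0.60. CIITA, the transactivator of class II genes, had 1.62 and 1.65 CPM against 0.683 and 0.665 CPM, 2.42-fold. SLA-DQB1, a class II chain, had 1.30 and 1.66 CPM against 0.377 and 0.308 CPM, 4.32-fold. CD86, a costimulatory ligand for T cells, had 1.14 and 1.13 CPM against 0.521 and 0.437 CPM, 2.37-fold. IFI30, a lysosomal thiol reductase of antigen processing, was 3.42-fold higher, and 2.16-fold without the right AAV eye.

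Few chemokine and cytokine genes were measurable, but the measurable ones included very large ratios. Of the 16 chemokine genes found, 7 passed the filter, 4 of them were higher and 0 lower. CCL2 and CXCL10 passed it only through the AAV eyes. CCL2 encodes MCP-1, which recruits monocytes, and had 1.22 and 4.43 CPM in the left and right AAV eye against 0.0359 and 0.0246 CPM, 93.4-fold. CXCL10 encodes IP-10, which recruits activated T cells, and had 0.461 and 2.86 CPM against 0.0120 and 0.0185 CPM (109-fold, counting interval 49.9 to 362). The right eye weighed heavily in both: against the vehicle mean, the log2 ratio was 4.92 in the left and 7.55 in the right eye for CXCL10, and 5.33 and 7.19 for CCL2. CXCL10 overlaps ART3, a gene on the other strand that was called neither higher nor lower. CCL5 and CCL8, which also attract leukocytes, were 3.54-fold and 2.23-fold higher. The call of CCL8 rested on single eyes, with 0.663 and 0.402 CPM in the AAV eyes against 0.0958 and 0.382 CPM. Its ratio was 1.68-fold without the left AAV eye, 1.39-fold without the left vehicle eye and 5.56-fold without the right vehicle eye.

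CCL3L1, a relative of the macrophage chemokine MIP-1α, was barely detected at week 2, with 2 UMIs in each AAV eye against 1 and 0 in the vehicle eyes. IL6 did not pass the filter, at 0.195 and 0.298 CPM against 0.138 and 0.148 CPM. Of 10 cytokine genes that passed, 2 were higher and 0 lower. CSF1, the growth factor of microglia and macrophages, had 3.55 and 7.93 CPM against 0.389 and 0.413 CPM, 14.3-fold (8.86-fold without the right AAV eye). IL15, which sustains NK and memory T cells, was 2.04-fold higher, but 1.73-fold without the right AAV eye and 1.90-fold without the left vehicle eye.

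TNF and NF-kB signalling genes were called higher in 4 of 24 cases and lower in 0, with a median log2 ratio of 0.36 and ratios close to the threshold. RELB, VCAM1, CFLAR and CEBPB were 2.23-fold, 2.16-fold, 2.13-fold and 2.05-fold higher. Without the right AAV eye VCAM1 was at 1.60-fold and CFLAR at 1.70-fold, below the threshold. Cell death effectors were called higher in 3 of 21 cases and lower in 0. CASP10, CASP8 and MLKL, which act in extrinsic apoptosis and necroptosis, were 5.32-fold, 2.55-fold and 2.30-fold higher, with CASP10 at 3.11-fold and MLKL at 1.76-fold without the right AAV eye. On the log2 scale all of these ratios lay below the median of the antiviral effectors.

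In the complement list 6 of 21 genes were higher and 0 lower, against 2.29% and 1.18% of all genes, with a median log2 ratio of 0.54. C1R and C1S encode the proteases that start the classical pathway. C1R had 1.13 and 4.56 CPM in the left and right AAV eye against 0.0898 and 0.136 CPM, and C1S had 1.005 and 3.98 CPM against 0.491 and 0.382 CPM. C4A, the substrate of these proteases, had 6.16 and 14.03 CPM against 1.98 and 2.07 CPM, 4.99-fold. C3, the central component of the cascade, had 7.27 and 8.94 CPM against 6.08 and 5.85 CPM, a 1.36-fold ratio below the threshold although the eyes did not overlap. C1R, C1S and C4A were higher in the right AAV eye, and without it their ratios were 10.04-fold, 2.30-fold and 3.05-fold. C1QC, a chain of C1q, had the opposite order, at 0.572 and 0.252 CPM against 0.138 and 0.179 CPM. C1R and C1QC passed the filter only through the AAV eyes, so their direction was fixed. The median log2 ratio of the list was 0.64 with the left and 0.46 with the right AAV eye alone.

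Among p53 targets 5 of 26 genes were higher and 0 lower, against 2.29% and 1.18% of all genes, with a median log2 ratio of 0.25. CDKN1A encodes p21, which halts the cell cycle, and had 3.32 and 3.47 CPM in the AAV eyes against 0.0299 and 0.0986 CPM, 52.8-fold, with almost equal AAV eyes. Its ratio was 34.4-fold without the left and 113.2-fold without the right vehicle eye. CDKN1A lay below 0.2 CPM in both vehicle eyes, so it passed the filter only through the AAV eyes and its direction was fixed. PMAIP1 and FAS, which promote apoptosis, were 4.44-fold and 3.40-fold higher, with PMAIP1 at 2.26-fold without the right AAV eye, and AEN, a nuclease of apoptosis, was 2.14-fold higher. The fifth was BBC3, or PUMA, at 2.06-fold, named because it completes the count. Of 19 DNA repair genes 1 was higher and 0 lower, against the same shares of all genes. RAD50, part of the complex that recognises double-strand breaks, had 550.1 and 746 CPM against 285 and 289.9 CPM, 2.25-fold, and 1.91-fold without the right AAV eye.

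Immediate early genes were called higher in 4 of 13 cases and lower in 0, with a median log2 ratio of 0.64. ATF3, NR4A3, EGR1 and FOS, all rapidly induced transcription factors, were 5.599-fold, 4.51-fold, 3.87-fold and 2.01-fold higher. The call of FOS was lost without the left AAV eye (1.77-fold) and without the right vehicle eye (1.69-fold). NR4A3 had 7.40 and 7.10 CPM against 1.21 and 2.01 CPM, but the vehicle animals of week 4 had 15.002 and 3.78 CPM. EGR1 likewise had 9.45 and 8.69 CPM against 2.43 and 2.27 CPM, with 7.67 and 5.49 CPM in the vehicle animals of week 4. For both genes a vehicle pig of week 4 lay closer to the AAV eyes of week 2 than to the vehicle eyes of week 2.

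Glial and photoreceptor genes showed few calls. Of 21 genes of gliosis and the acute phase, 2 were higher and 0 lower, TIMP1 at 2.70-fold and OSMR at 2.23-fold, against 2.29% and 1.18% of all genes. GFAP, the intermediate filament of reactive glia, had 24.1 and 12.7 CPM in the AAV eyes against 25.3 and 24.1 CPM in the vehicle eyes, and the groups overlapped. Of 15 Müller glia homeostasis genes, 1 was higher and 0 lower, the thyroid hormone-binding protein CRYM with 39.6 and 52.8 CPM against 22.03 and 20.8 CPM, 2.16-fold, and 1.85-fold without the right AAV eye. RGR and RLBP1, which serve the visual cycle, had 50.2 and 54.0 CPM against 87.8 and 71.2 CPM, and 96.3 and 102 CPM against 151 and 121 CPM.

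None of the 23 rod phototransduction genes was called in either direction, yet all lay below the vehicle eyes in ratio, with a median log2 ratio of -0.38 and a range from -0.93 to -0.09. NR2E3, a transcription factor of rods, was the lowest with 102 and 70.3 CPM against 168 and 159 CPM. Summed rod markers were 4930 and 4658 CPM in the AAV eyes against 6024 and 6128 CPM, 0.789-fold. The vehicle animals of week 4 had 6584 and 5350 CPM, so the AAV eyes of week 2 lay below all vehicle retinas. The AAV animals of week 4 were not low, at 6297 and 7014 CPM. The median log2 ratio of the rod genes was -0.31 without composition scaling and -0.21 when every barcode was given the same total. None of 12 cone genes was called, with a median log2 ratio of 0.09.

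Heat shock, glucocorticoid, clock, axon injury, adhesion, checkpoint, AAV entry and cell cycle lists gave 0 or 1 calls in a direction. HSP90AA1, a stress-induced chaperone, was the lower gene of the heat shock list, with 83.0 and 79.7 CPM against 159 and 179 CPM, and its ratio was 1.95-fold without the right vehicle eye. MT1A, a metallothionein induced by glucocorticoids and metals, was the higher gene of the glucocorticoid list, with 0.859 and 1.69 CPM against 0.150 and 0.308 CPM, 5.57-fold, and 8.52-fold without the right vehicle eye. PDCD1LG2, a ligand of the inhibitory receptor PD-1, was 4.13-fold higher, and 2.69-fold without the right AAV eye. None of the 15 genes for AAV entry passed the threshold.

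Immune cell markers were low in all week 2 eyes. Of 9 microglia and macrophage markers that passed the filter, 4 were higher and 0 lower, against 2.29% and 1.18% of all genes, and their summed level was 32.4 and 26.4 CPM in the AAV eyes against 23.7 and 23.0 CPM. CD163, a macrophage scavenger receptor, had 0.538 and 0.579 CPM against 0.174 and 0.185 CPM. PTPRC, the CD45 antigen of all leukocytes, had 1.31 and 0.958 CPM against 0.551 and 0.468 CPM. AIF1, or IBA1, a calcium-binding protein of microglia, had 0.503 and 0.384 CPM against 0.198 and 0.222 CPM. C1QC was 2.61-fold higher. Without the left AAV eye C1QC, PTPRC and AIF1 were at 1.60-fold, 1.88-fold and 1.83-fold. Of the 4 only CD163 stayed past the threshold whichever eye was left out. CD163 and C1QC lay below 0.2 CPM in both vehicle eyes. They passed the filter only through the AAV eyes, so the filter had fixed their direction. Leaving out an eye of the same pig is no replicate of the treatment. Unlike most antiviral effectors, PTPRC and AIF1 were higher in the left AAV eye.

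T and NK cell markers summed to 11.2 and 11.3 CPM in the AAV eyes against 10.5 and 10.2 CPM, with NKG7, a granule protein of cytotoxic cells, the only gene higher of 5 that passed. CD3E, part of the T cell receptor complex, had 0.461 and 0.367 CPM against 0.371 and 0.407 CPM, and the groups overlapped. B and plasma cell markers summed to 27.4 and 32.7 CPM against 28.4 and 27.4 CPM, with 0 of 5 higher and 1 lower, the B cell factor PAX5, at 2.05 and 1.46 CPM against 3.59 and 4.32 CPM (1.93-fold lower without the right AAV eye). The part of immune cells in the differences at week 2 was not tested.

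**Figure D3:**
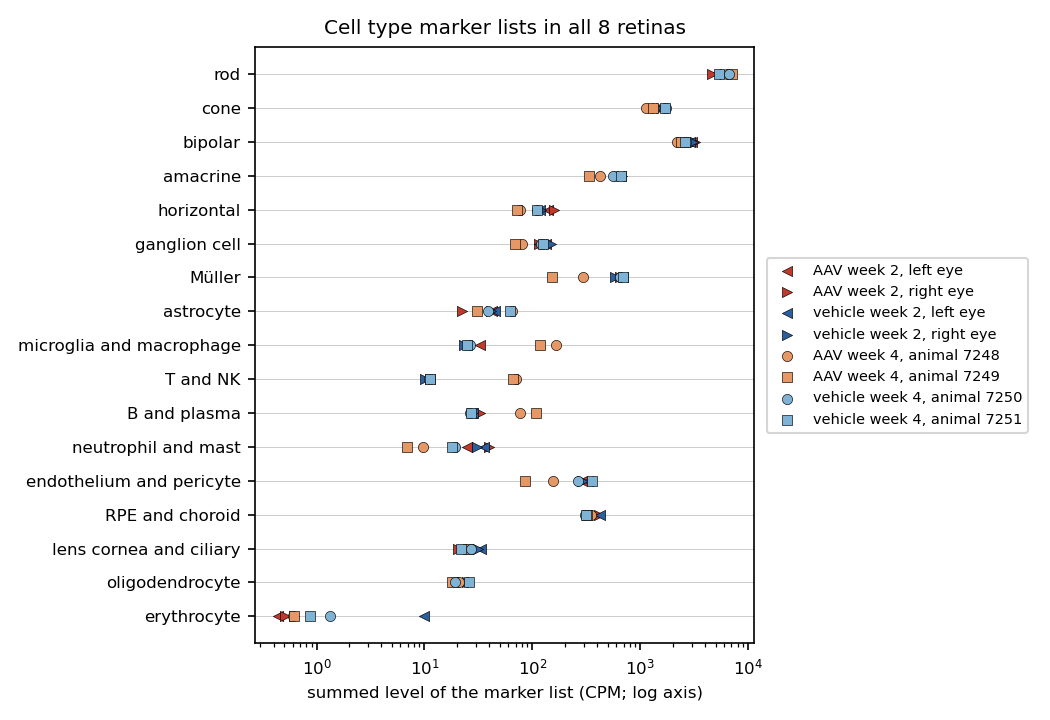
Summed level of cell type marker lists in all 8 retinas (CPM, log axis; red and orange AAV, dark and light blue vehicle; triangles are week 2 eyes, circles and squares week 4 animals). At week 2 the microglia and macrophage lists lay between 23.0 and 32.4 CPM, against 167 and 117 CPM in the AAV animals of week 4.

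The AAV eyes were not alike. Of the 540 higher genes, 426 had the higher level in the right AAV eye, with a median right over left log2 ratio of 0.39, against -0.01 over all genes that passed. Of the 108 genes higher at least 8-fold it was 100, with a median 1.55-fold difference. Among antiviral effectors, all but IFI6 and IFI44L, 40 of 42, were higher in the right eye, with a median of 1.49-fold, and EGFP was 1.84-fold higher there. Transgene level and interferon-stimulated genes thus had the same order in the eyes of this animal, which is a description of 1 pair of eyes.

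The 8 symbolled genes of at least 1 CPM with the largest difference between the AAV eyes included several of the response, and CXCL10, below that level, differed more, by 2.64 on the log2 scale. C1R, C1S, CCL2, IFIT2 and GBP1 were higher in the right eye, with IFIT2, an RNA-binding effector, at 10.5 and 33.1 CPM in the left and right AAV eye, and GBP1, an interferon-induced GTPase, at 14.7 and 45.2 CPM. Their ratios to vehicle were 8.62-fold and 6.18-fold without the right AAV eye and 27.1-fold and 19.0-fold without the left. PRAME had 0.908 and 3.65 CPM in the AAV eyes against 0.605 and 0.382 CPM. TTR, the thyroxine and retinol transporter made by retinal pigment epithelium, had 3.86 and 14.9 CPM against 6.97 and 7.41 CPM, and summed markers of pigment epithelium and choroid were 323 and 414 CPM in the left and right AAV eye against 423 and 339 CPM. CD207, known as langerin, had 9.81 and 3.03 CPM against 11.12 and 17.1 CPM and was lower in the right eye. The part of pigment epithelium in these eye differences was not tested.

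Genes lower in the AAV eyes had smaller ratios, and no list held more than 1 of them. Among symbolled genes of at least 1 CPM, only HBB and ADRA2B were lower at least 8-fold. HBB, the beta chain of haemoglobin, rested on a single eye, with 9.34 CPM in the left vehicle eye, 0.209 CPM in the right, and 0.0489 and 0.0287 CPM in the AAV eyes. Without the left vehicle eye its log2 ratio was -2.43, against -6.94 with it. ADRA2B, an adrenergic receptor, had 0.105 and 0.166 CPM in the AAV eyes against 2.28 and 2.33 CPM, 17.0-fold lower. HTR1F, a serotonin receptor, had 0.342 and 0.333 CPM against 1.59 and 1.81 CPM, 5.04-fold lower. For these receptors the other retinas lay nearer to the vehicle eyes than to the AAV eyes, since the 4 retinas of week 4 lay between 1.63 and 2.50 CPM for ADRA2B and between 1.16 and 1.49 CPM for HTR1F, AAV animals included. The AAV animal of week 2 was therefore the one that stood apart.

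In 6 of the 15 lower genes all 4 retinas of week 4 lay below both vehicle eyes of week 2. These were MCTP1, PCDH12, BAIAP2L2, CATSPER4, SPATA46 and HTR1F. MCTP1, a calcium-binding membrane protein, had 22.1 and 22.1 CPM in the AAV eyes against 87.3 and 75.3 CPM, but all week 4 retinas lay between 21.7 and 30.4 CPM. PCDH12, a protocadherin, had 0.398 and 0.574 CPM against 2.18 and 1.93 CPM, with all week 4 retinas between 0.307 and 0.622 CPM. PLA2G7, a lipid hydrolase of the platelet-activating factor pathway, had 15.1 and 15.7 CPM against 66.3 and 64.4 CPM, and the week 4 retinas were split, with 10.7 and 14.3 CPM in the vehicle and 98.0 and 27.8 CPM in the AAV animals. CENPF, a kinetochore protein, had 1.57 and 1.38 CPM against 4.60 and 4.22 CPM, with 1.61 and 1.73 CPM in the vehicle and 4.93 and 5.28 CPM in the AAV animals of week 4. For PLA2G7 and CENPF the vehicle retinas of week 4 thus lay near the AAV eyes of week 2, and an AAV animal of week 4 lay above the vehicle eyes of week 2. BAIAP2L2 had 1.23 and 1.40 CPM against 4.02 and 4.14 CPM, with all week 4 retinas between 1.10 and 2.46 CPM. The remaining genes of the 15 were GPR82, SEC14L5, GSTO2, CATSPER4, NAALAD2, SPATA46 and PKD2L1, between 4.58-fold (GPR82) and 2.89-fold (PKD2L1) lower.

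**Figure D4:**
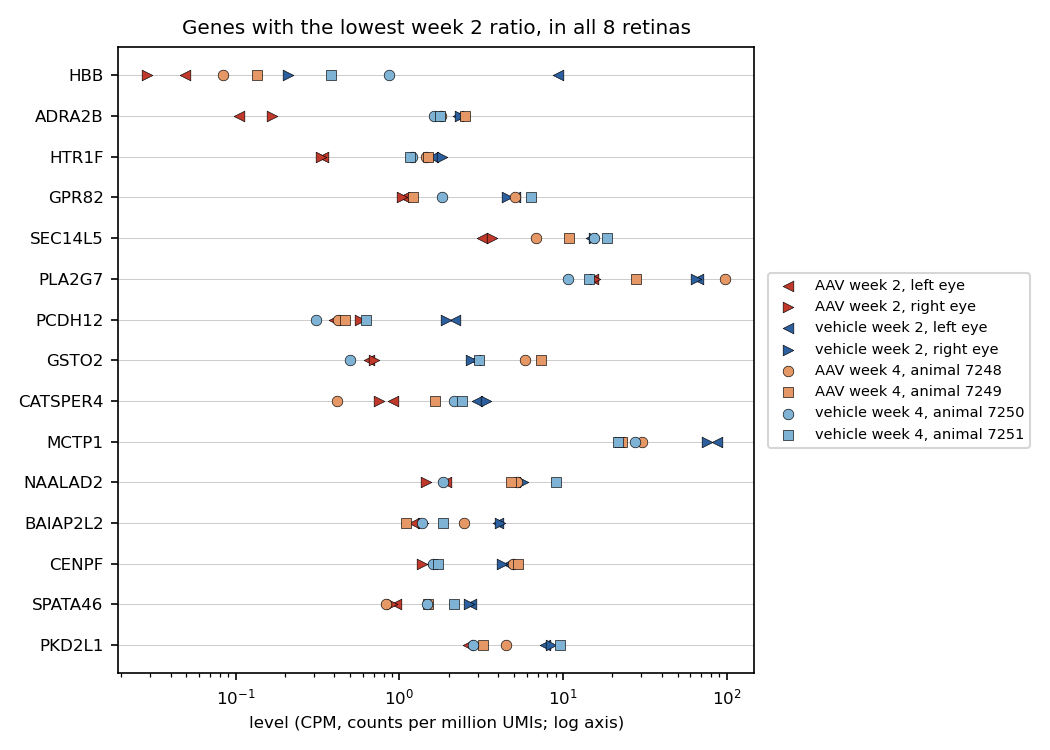
Level of the 15 symbolled genes with the lowest week 2 ratio in all 8 retinas (CPM, log axis; red and orange AAV, dark and light blue vehicle; triangles are week 2 eyes, circles and squares week 4 animals). The vehicle retinas of week 4 fall among the AAV eyes of week 2 for MCTP1 and PCDH12 and near the vehicle eyes of week 2 for ADRA2B and HTR1F.

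Set against the vehicle retinas of week 4, 475 of the 540 higher genes (88.0%) were also above both of them, and 187 of the 278 lower genes (67.3%) were also below both. Of the lower genes, 182 (65.5%) had both vehicle week 4 retinas below both vehicle week 2 eyes, against 27.9% of all genes that passed. Of the higher genes, 208 (38.5%) had both vehicle week 4 retinas above both vehicle week 2 eyes, against 25.4% of all genes. The AAV and vehicle values of week 2 both took part in choosing the genes, so these shares and this order are a description. The share of all genes above or below both vehicle week 4 retinas is not given here. The 2 vehicle pigs of week 4, which took no part in the choice, were at least 2-fold apart at 20.5% of the lower and 15.6% of the higher genes, against 2.22% of all genes. Of the 22 genes lower at least 8-fold, 20 have no symbol, and at 11 the vehicle pigs of week 4 were at least 8-fold apart, against 7 of the 108 genes higher at least 8-fold (6.48%) and 0.152% of all genes that passed. At those 11 genes pigs given the same treatment differed past the same threshold.

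The same contrast at week 4 shares no animal with week 2 and was tested there with edgeR's quasi-likelihood test at an adjusted p of 0.05, 2 animals against 2. Of 26889 genes tested, 2027 were higher (7.54%) and 1451 lower (5.4%). Of the week 2 higher genes, 290 of 538 were also higher at week 4 (53.9%) and 11 were lower (2.04%). The share rose with the week 2 ratio, to 98 of 107 genes of at least 8-fold and 65 of 70 genes of at least 16-fold. Of the week 2 lower genes, 31 of 274 were lower at week 4 (11.3%) and 18 were higher (6.57%), with a median week 4 log2 ratio of -0.04. Of the genes lower at least 8-fold, 3 of 18 were lower again. The total of lower genes at week 4 ran from 279 without vehicle animal 7251 to 2213 without AAV animal 7248, with 866 without AAV animal 7249 and 528 without vehicle animal 7250. Without vehicle animal 7251, 13 of the week 2 lower genes were lower at week 4. The total of higher genes was 1077 without vehicle animal 7250 and 1026 without vehicle animal 7251.

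**Figure D5:**
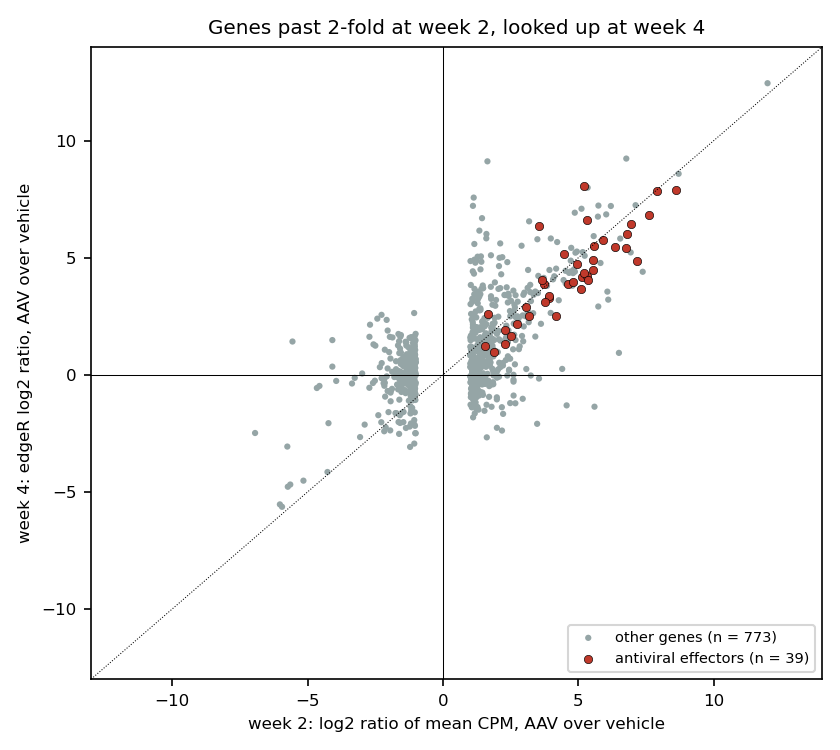
Week 2 log2 ratio of mean CPM (x axis) and week 4 edgeR log2 ratio (y axis), AAV over vehicle, for the 812 genes past 2-fold at week 2 that were tested at week 4 (red, 39 antiviral effectors; grey, 773 other genes; dotted line, equal ratios). Genes higher at week 2 extend along the dotted line, and genes lower at week 2 scatter around 0 on the y axis.

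The antiviral effectors were already far from vehicle at week 2. At week 4, 39 of 42 were higher with edgeR, with a median log2 ratio of 4.05, and the ratio of mean CPM was larger at week 2 for 33 of 42, with a median difference of 0.64. DDX60 had 82.2 and 78.5 CPM in the AAV animals of week 4 against 0.146 and 0.275 CPM, a log2 ratio of 8.59 with edgeR, beside a log2 ratio of mean CPM of 8.70 at week 2. MX2 had log2 ratios of 7.87 and 7.90 in the same order, and RSAD2 of 7.87 and 8.59. ISG15 had 20.2 and 30.7 CPM in the AAV animals of week 4 against 0.968 and 0.800 CPM, a log2 ratio of 4.85 with edgeR beside 7.17 at week 2. These values stand side by side without a p-value, since the week 2 ratio comes from 1 pig per arm. The 42 genes come from the same pigs and are not separate observations. A fall between the weeks cannot be told apart from a difference between pigs. In the fit of treatment by week described below, the week 4 minus week 2 log2 value was -2.36 for ISG15 and -0.77 for RSAD2. It was -0.08 for MX2 and -0.15 for DDX60, and these genes did not pass the threshold of that fit.

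Most lists of immune cell genes held many calls at week 4. With edgeR, 10 of 11 microglia and macrophage markers, 10 of 10 T and NK cell markers, 7 of 10 B and plasma cell markers and 10 of 12 genes of MHC class II presentation were higher there and 0 lower, against 7.54% and 5.4% of all genes. Summed microglia and macrophage markers were 167 and 117 CPM in the AAV and 26.5 and 24.6 CPM in the vehicle animals of week 4, and T and NK cell markers were 69.9 and 66.8 CPM against 11.11 and 11.3 CPM. Of the 6 neutrophil and mast cell markers found, only 2 passed the week 2 filter. At week 4, 1 of 4 tested was higher and 1 lower, with a median log2 ratio of 1.03. Their sums, which need not stand for the list, were lower at week 4 in both arms. The sums were 24.97 and 39.9 CPM in the AAV and 35.8 and 30.9 CPM in the vehicle eyes of week 2. At week 4 they were 9.70 and 6.88 CPM in the AAV and 19.2 and 18.1 CPM in the vehicle animals. CD163 was at 67.8 and 33.1 CPM in the AAV animals of week 4 against 0.0538 and 0.129 CPM, CD3E at 11.6 and 9.96 CPM against 0.292 and 0.315 CPM, and CIITA at 28.1 and 17.0 CPM against 0.699 and 0.679 CPM. IL18R1, a cytokine receptor chain, had 0.161 and 0.224 CPM in the AAV eyes of week 2 against 0.180 and 0.154 CPM, and 14.1 and 11.4 CPM in the AAV animals of week 4 against 0.108 and 0.137 CPM.

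Of the 15 Müller glia homeostasis genes, 12 were lower and 0 higher at week 4 with edgeR, with a median log2 ratio of -1.72. Of all genes 5.4% were lower and 7.54% higher. Of 13 mitochondrial, ribosomal and housekeeping genes, 12 were lower in the same contrast. RGR had 5.57 and 2.89 CPM in the AAV and 77.1 and 87.6 CPM in the vehicle animals of week 4. The transporter gene ABCA8 had 53.6 and 41.8 CPM against 56.5 and 50.6 CPM at week 2, and 9.57 and 9.64 CPM against 60.9 and 62.6 CPM at week 4. Summed Müller markers were 593 and 655 CPM in the AAV eyes of week 2 against 690.2 and 586 CPM, and 294 and 153 CPM in the AAV animals of week 4 against 643 and 688 CPM.

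A fit of treatment by week over the 6 animals (edgeR) put the week 4 minus week 2 difference past the threshold at 255 genes in the higher (0.908%) and 48 in the lower direction (0.171%). The week 2 arms have no spread of their own, so the fit has to take these pigs to vary like those of week 4. The data cannot check that, and values of the fit are listed in a later section with this limit. The number of genes also moved with single animals. It was 792 and 710 without AAV animal 7248, 542 and 253 without AAV animal 7249, 132 and 10 without vehicle animal 7250, and 166 and 24 without vehicle animal 7251. The lone animal of an arm was then assumed to vary like the other group.

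The mitochondrial share of UMIs overlapped between the arms at week 2. It was 0.580% and 0.494% in the AAV eyes against 0.542% and 0.751% in the vehicle eyes. Of 13 mitochondrial, ribosomal and housekeeping genes, 0 were higher and 1 was lower, ND2, a subunit of complex I, with 174 and 133 CPM against 292 and 407 CPM (1.90-fold lower without the right vehicle eye). At week 4 the share was 0.209% and 0.144% in AAV against 0.880% and 0.629% in vehicle animals, and 12 of the 13 genes were lower with edgeR. The part of RNA quality in the differences was not tested. Erythrocyte markers summed to 9.88 CPM in the left vehicle eye and to at most 0.616 CPM in the other week 2 eyes, and HBB was the gene that moved with it.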

How the data were processed

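The authors mapped the reads to Sscrofa11.1, extended by the EGFP sequence, and deposited UMI counts per gene and barcode from Cell Ranger 8.0.0, without normalization, as filtered matrices of 4 lanes per retina. Whether intronic and antisense reads were counted is not given in the sources used here, so overlapping genes are uncertain. The files list 35683 genes, of which 18050 have an identifier without a symbol.

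Raw counts were summed over all barcodes (at least 500 UMIs each) and lanes of a retina, with no doublets removed, and scaled to CPM with TMM factors from all 8 retinas. Genes with a mean of at least 0.2 CPM over the 4 week 2 eyes were kept. No test was run between the arms at week 2. Counts of week 4 retinas, and counts per animal for the interaction of treatment and week, were fitted with edgeR 4.0.16 (R 4.3.3; quasi-likelihood test, Benjamini-Hochberg adjustment). On simulated counts with known changes, 94.4% of changed genes were recovered at week 4 (26769 genes), where 7% of the calls were of unchanged genes, and 61.1% for the interaction (27905 genes), where it was 0.82%. Where an arm has no UMI, a floor of 3 counts over the arm was set. Total UMIs per retina ran from 121544835 to 173614051, so counting error is small above about 1 CPM. Intervals of levels are exact Poisson intervals and intervals of ratios are exact binomial intervals, both at 95%.

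Named are EGFP, genes the study names, the 15 higher and 15 lower symbolled genes of at least 1 CPM with the largest week 2 ratio, the 4 largest absolute ratios in each of 44 lists, the 8 largest differences between the AAV eyes among symbolled genes of at least 1 CPM, and the 8 smallest interaction p-values in each direction. The comparison, lists and rules were chosen with earlier results of these data known, and lists were written from general knowledge. The 6 genes whose sequences are printed were picked after the values had been seen. Promoter windows of 250 bases come from the RefSeq annotation of Sscrofa11.1. Some items are not reported here. Alternatives covered scaling, filters, barcodes, eyes, added controls, the fold threshold, DESeq2 1.42.0 and leaving out each retina.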

Additional observations from a re-analysis of the deposited data

Results flagged for a closer look

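The values here come from the edgeR fit of treatment by week. They are the week 4 minus the week 2 log2 ratio of AAV over vehicle animals, and they passed the threshold of that fit. The week 2 ratio comes from 1 pig per arm, whose spread had to be taken from the week 4 animals, so a difference between those 2 pigs or their batches cannot be told apart from a difference in the effect of AAV. The fit gave 255 genes with a higher and 48 genes with a lower value at week 4. Among genes of leukocytes, the value was 3.72 for ARHGAP15, 3.89 for IKZF1, 4.43 for RHOH, 4.23 for IKZF3, 6.47 for IL18R1, 3.45 for INPP5D and 3.58 for LCP2. It was 7.47 for CD163, 4.45 for PTPRC, 5.07 for CD3E, 5.36 for CD2, 3.86 for CD8A, 3.01 for CD28, 4.22 for BLK, 3.37 for CD74, 1.74 for CD80, 3.48 for SLA-DQB1, 3.76 for CIITA and 3.64 for CD86. Apart from these, it was 1.498 for CD207 and 3.72 for PADI1, an enzyme that deiminates arginine. Their week 2 log2 ratios were negative, at -1.14 and -1.07, beside 0.295 and 2.64 at week 4 with edgeR. The leukocyte genes named before CD207 are not 1 of the lists, and only genes past the threshold of the fit are printed. The microglia and macrophage markers AIF1 (2.05) and C1QC (3.17) did not pass it.

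The value was negative for ABCA8 (-2.50), JPH1 (-2.40), TBX5 (-2.54), JDP2 (-4.24), STK32A (-2.28), GINS2 (-1.97), BAMBI (-2.52) and KCNMB4 (-2.00), and for the Müller gene RGR (-3.68) and the cone gene GNB3 (-1.37). It was 1.70 for the rod factor NRL and 2.77 for SAMD9. CD2, CD8A, CD28, BLK, CD74, CD80 and SAMD9 were named after their values were seen.

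The genes ADRA2B (4.39), HTR1F (2.65) and CENPF (3.20) had been named for their low week 2 values, which enter the fit, so it is not independent of their choice. The same limit holds for genes named for their week 2 ratio within a list. Among these are GNB3, NRL, RGR, CD163, PTPRC, CD3E, SLA-DQB1, CIITA and CD86. It also holds for CD207, named for the difference between the AAV eyes.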

How the results depend on the processing

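The week 2 calls of 540 higher and 278 lower genes became 1048 and 782 without the filter except 10 UMIs over the 4 eyes, 322 and 133 at a mean of at least 1 CPM, 1422 and 1096 at 1.5-fold, and 192 and 52 at 4-fold. With the vehicle week 4 animals added to the controls, 155 genes were lower, 116 of them shared. Leaving out 1 eye gave 480 to 637 higher and 269 to 383 lower genes. Scalings, barcode filters and single-eye comparisons stayed within 1.5 times. Of the antiviral effectors, 39 were higher in each scaling, barcode and eye alternative, with a median log2 ratio from 4.30 to 5.03. At week 4, DESeq2 gave 2404 lower genes. Leaving out 1 animal gave 1026 to 2323 higher and 279 to 2213 lower genes, and of the week 2 higher and lower genes 229 to 279 and 13 to 30 were called the same way. For the fit of treatment by week, DESeq2 gave 1065 and 720 genes and leaving out 1 animal 132 to 792 and 10 to 710. Of 3296 alternative values of named genes at week 2, 143 moved by more than the spread between eyes, and of 1442 at week 4, 86 fell below and 41 rose past the edgeR threshold. Of 1645 values from the fit of treatment by week, 35 fell below and 131 rose past it. The causes were not tested. Among the named genes, no called value changed sign in any alternative run. The signs of the other called genes were not followed. No paired analysis was possible because the labels give no replicate number shared between animals and week 2 has no test. At 1 animal per arm, the spread between pigs at week 2 is unknown.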

Other observations

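The genes in this section were chosen after their values were seen. CDHR4, a cadherin-related gene that lies 1006 bases from UBA7 on the same strand, had 30.8 and 63.5 CPM in the left and right AAV eye of week 2 against 1.23 and 1.28 CPM in the vehicle eyes. UBA7, which activates ISG15 for conjugation, had 16.9 and 31.7 CPM against 0.557 and 0.659 CPM. GHSR, the ghrelin receptor gene, had 20.3 and 46.8 CPM against 1.08 and 1.10 CPM. FOXS1, a forkhead transcription factor that also stands among the 15 genes with the largest ratio, had 32.1 and 64.8 CPM against 0.581 and 0.579 CPM. These genes had the same order of the AAV eyes as the antiviral effectors.

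JDP2, a bZIP repressor gene named by the fit of treatment by week, had 64.9 and 50.6 CPM in the AAV eyes of week 2 against 14.9 and 14.2 CPM. At week 4 the order was the opposite, with 14.1 and 11.4 CPM in the AAV animals and 76.0 and 47.6 CPM in the vehicle animals.

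Of the genes without a symbol, ENSSSCG00000049388 had 0.0628 and 0.0861 CPM in the AAV eyes of week 2 against 5.84 and 3.87 CPM in the vehicle eyes, and 0.0615 and 6.54 CPM in the vehicle animals of week 4. In the other direction, ENSSSCG00000032436 had 19.4 and 22.2 CPM in the AAV eyes against 0.0838 and 0.166 CPM, and 2.38 and 4.46 CPM in the AAV animals of week 4.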
